A study of Rattus norvegicus with 12 samples.

Results

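Expression of 10 genes of lipoproteins and their assembly was measured in liver and liver tumors of the Long Evans Cinnamon (LEC) rat: the apolipoprotein genes Apoa1, Apoa2, Apoa4, Apoa5, Apob, Apoc3, Apoe, Apoh and Apom, and Mttp, which encodes the microsomal triglyceride transfer protein. They were chosen by gene symbol in the annotation of the array, and every probe set given to 1 of them was kept, which made 12 probe sets of the 31042 tested and 10 of the 14217 genes measured. Apob and Apoe had 2 probe sets each and the other 8 genes had 1. In tumor, 9 of the 12 probe sets were lower than in nontumor liver at an adjusted p under 0.05 and 0 were higher. Over all probe sets 32.2% were lower and 31.7% higher. Of the 9, a dim Apoe probe set lay at background in both groups. Apom, Apoa5 and Apoa4 had the largest falls. The 12 probe sets took the same order over the 4 tumor arrays, which 5.86% of all probe sets shared. This order was read from the members' own values, and the 14 hepatocyte markers measured had it too. The dim Apoe probe set had it only within background. The bright probe set of Apoe, with the smallest fall of those above background, stayed at 13.27 or more on every array.

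LEC rats (LEC/Crj) lack a working copper transporter gene, Atp7b, and store copper in the liver, with hepatitis and tumors of older animals. All LEC arrays, nontumor liver included, come from this 1 mutant strain, and the Long Evans Agouti (LEA) control is another strain. The series held 4 arrays of tumor and 4 of adjacent nontumor LEC liver at 67 weeks, each a mixture of RNA from 2 pairs out of 8 paired specimens, and 1 array each of pooled LEC liver at 4, 26 and 39 weeks and pooled LEA liver at 67 weeks. No treatment is named for any group and every label gives male rats kept free of specific pathogens. The labels do not say how many rats were in the single pools or whether a specimen entered more than 1 mixture, so p-values measure only the spread between these mixtures, part of which may be technical.

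Values are log2 expression values, and a difference of 1 is a doubling. Array medians lay between 7.39 and 7.51 and the brightest probe set of each array between 14.32 and 14.59. A lower limit was taken from 27 control probe sets for Bacillus RNA, whose highest value on an array lay between 5.52 and 6.22; a value at or under that limit is called background here. Among 3 sex-chromosome genes checked, the X-silencing RNA Xist measured 11.36 to 13.12 on 10 arrays, but 5.27 at 26 weeks and 5.67 at 39 weeks. Y-linked Eif2s3y measured 3.65 to 3.81 on the same 10, but 8.90 and 8.18 at 26 and 39 weeks. Uty, also Y-linked, measured 9.68 to 10.70 on all 12 arrays and was lowest at 26 and 39 weeks, the reverse of Eif2s3y. By Xist and Eif2s3y the 10 arrays, tumor and nontumor alike, go against their male labels, and Uty does not settle their sex. Comparisons with the 26 and 39 week pools set arrays with Xist against arrays without it. Leaving both pools out changed the count of called members in neither the tumor nor the LEA comparison.

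Hepatocytes secrete triglyceride in very low density lipoprotein, a particle built on a single molecule of apolipoprotein B into which the microsomal transfer protein loads lipid in the endoplasmic reticulum. Exchangeable apolipoproteins then move between these particles and high density lipoprotein, where they steer lipases, receptors and lipid transfer. The liver is the main source of most of these proteins in plasma, so their transcripts are among the most abundant of a hepatocyte.

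The promoters of the 3 members with the largest falls in tumor are shown. Some other pairs of members were closer in profile than these 3 genes, as given below. Windows came from RefSeq (assembly GRCr8) and span 250 bases before to 50 after an annotated start; 5 of the 10 members had one, with 8 windows in all among 33469. Capitals mark matches to the half-site of nuclear receptors (AGGTCA or GGGTCA, searched on both strands) and to the TATA box (TATAAA, searched on the gene's strand). Each sequence reads from 5′ to 3′ on the gene's strand.
Apom, chr20:3695368-3695667, + strand: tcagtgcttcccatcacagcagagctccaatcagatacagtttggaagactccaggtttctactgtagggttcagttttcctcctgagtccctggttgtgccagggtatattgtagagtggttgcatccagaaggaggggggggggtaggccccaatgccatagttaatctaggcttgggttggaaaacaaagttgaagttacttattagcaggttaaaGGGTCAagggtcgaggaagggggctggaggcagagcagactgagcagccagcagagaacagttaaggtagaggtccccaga
Apoa5, chr8:55457621-55457920, + strand: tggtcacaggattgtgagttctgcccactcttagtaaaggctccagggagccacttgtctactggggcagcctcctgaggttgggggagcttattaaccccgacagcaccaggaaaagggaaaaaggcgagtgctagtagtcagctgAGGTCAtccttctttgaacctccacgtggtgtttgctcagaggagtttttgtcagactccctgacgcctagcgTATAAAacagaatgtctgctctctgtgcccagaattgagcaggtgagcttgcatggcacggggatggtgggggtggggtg
Apoa4, chr8:55435529-55435828, + strand: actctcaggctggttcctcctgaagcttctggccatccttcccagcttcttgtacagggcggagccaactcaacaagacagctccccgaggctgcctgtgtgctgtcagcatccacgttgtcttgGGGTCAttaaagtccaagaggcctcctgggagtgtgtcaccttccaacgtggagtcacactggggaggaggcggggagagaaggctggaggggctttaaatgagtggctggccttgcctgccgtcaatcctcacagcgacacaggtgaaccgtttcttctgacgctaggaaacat

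The Apom window holds GGGTCA at -31 from the start, the Apoa4 window holds GGGTCA at -125, and the Apoa5 window holds AGGTCA at -103 and TATAAA at -30. GGGTCA occurred in 4 of the 8 member windows and in 13.8% of all windows, AGGTCA in 1 of 8 and 16.2%, and TATAAA in 2 of 8 and 8.80%. Some of the member windows overlap each other, as Apoa5 and Apoe have more than 1 annotated start, and their matches are then shared. The FOXA core TGTTTAC, searched on both strands, was in 1 of 8, at -110 in Apoh, and in 3.78% of all. No match in the 8 windows was found for CAAAGTNCA (an HNF4 core, in 1.24% of all windows) or TTGCGCAA (a C/EBP site, 0.170%), also searched on both strands. Longer motifs, the palindrome of HNF1 (0.00299%) and a direct repeat of AGGTCA, 1 base apart (0.0538%), had no match either. The repeat was not searched with GGGTCA or with mismatches. A match is only a run of letters and says nothing about binding, and no match says only that these letters are not in the window.

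Tumor and adjacent nontumor liver at 67 weeks were compared first, the contrast for which the design gives replicates. Across all probe sets 32.2% were lower and 31.7% higher in tumor by limma with Benjamini-Hochberg adjustment, so a call in this contrast is common. Against that, 9 of the 12 member probe sets were lower, 0 were higher and 3 did not pass, and 7 of the 10 genes had a lower probe set. The median difference of the 12 was -2.47, beside -0.04 over all probe sets. Tumor and nontumor values did not overlap for 10 of the 12, and 31.2% of all probe sets were lower in tumor without overlap. In tissue RNA, fewer hepatocytes and less RNA per hepatocyte cannot be told apart.

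**Figure D1:**
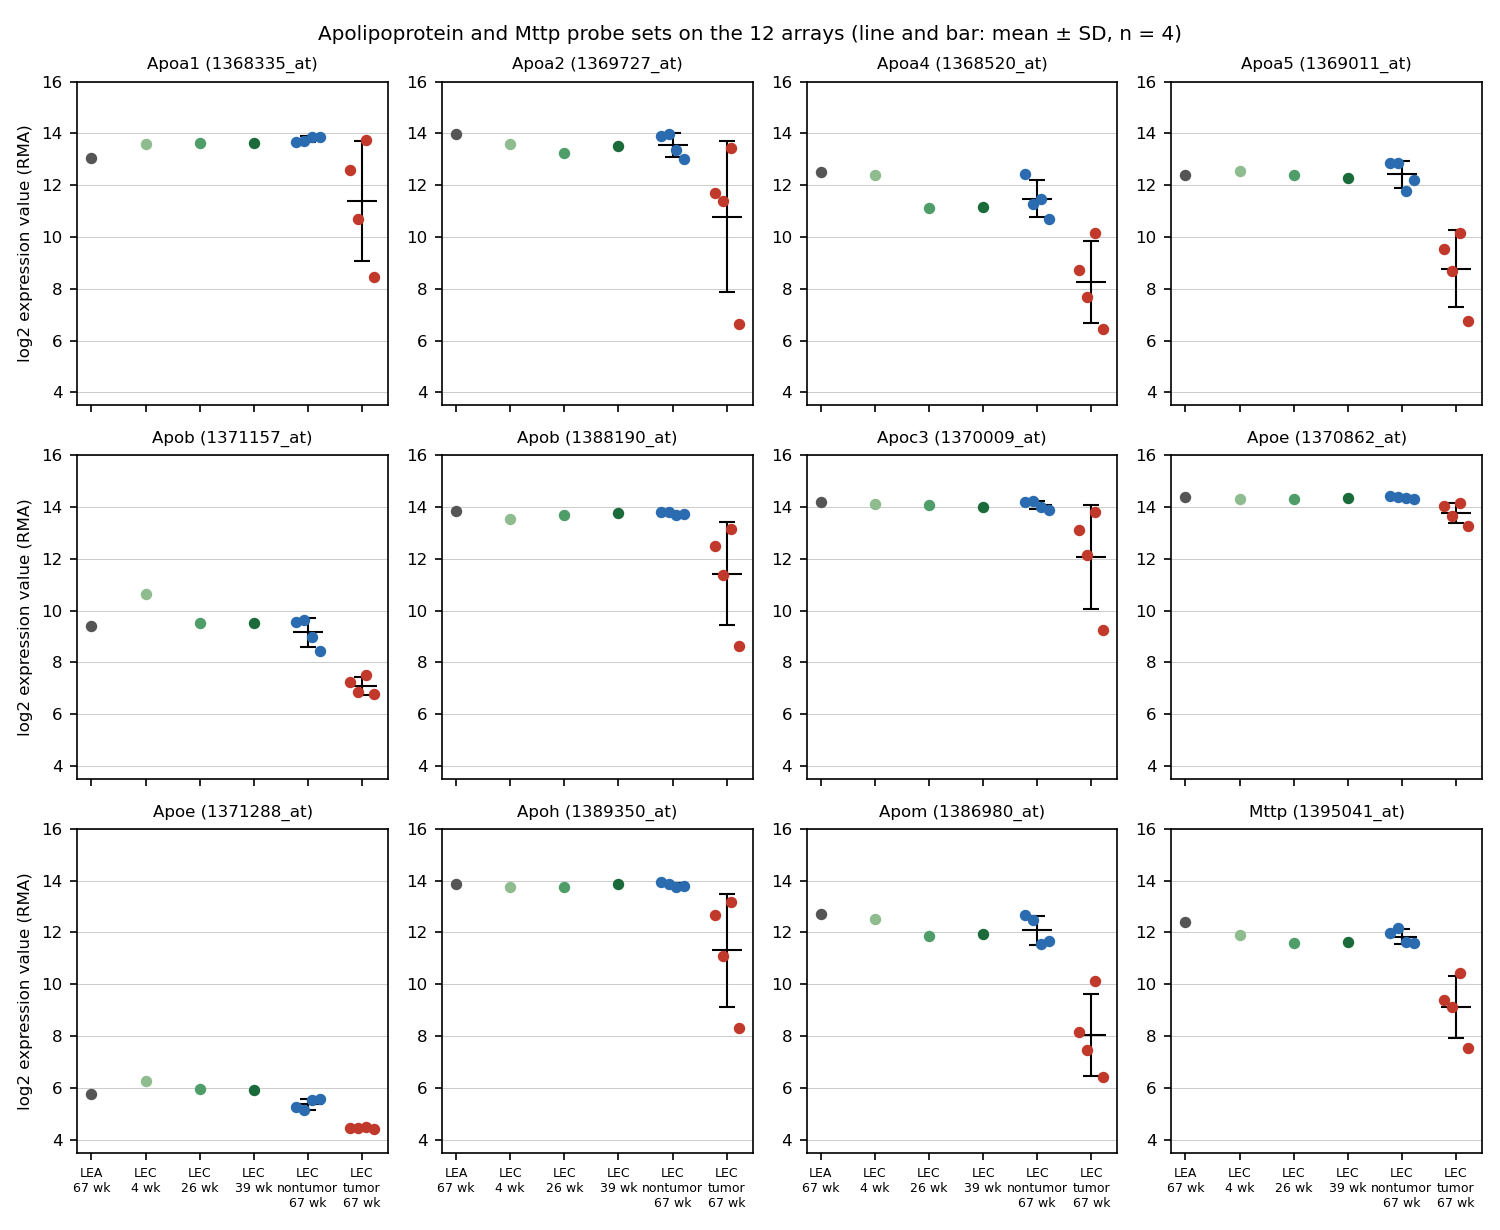
Log2 expression value (vertical axis) of each of the 12 probe sets on each of the 12 arrays, grouped along the horizontal axis as LEA at 67 weeks, LEC at 4, 26 and 39 weeks, and LEC nontumor and tumor at 67 weeks; points are arrays, and the line and bar give mean ± SD of the 4 nontumor and the 4 tumor arrays. The single pools lie near the nontumor arrays in most panels, and the tumor arrays spread downward, for Apoa2 from 13.44 to 6.63.

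The particle's core protein and its loader were both lower in tumor. Mttp measured 11.99, 12.17, 11.62 and 11.59 on nontumor arrays 1 to 4 and 9.40, 9.12, 10.44 and 7.54 on tumor arrays 1 to 4. No tumor value reached the lowest nontumor value, and the mean fell from 11.84 ± 0.28 to 9.12 ± 1.20 (SD, n = 4 each). The fitted difference was -2.71 ± 0.51 (SE; adjusted p = 0.00174 by limma), a 6.56-fold lower level.

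Apob, whose product is the single structural protein of the particle, was read by 2 probe sets. The brighter, 1388190_at, measured 13.79, 13.82, 13.71 and 13.72 in nontumor liver and 12.48, 11.39, 13.15 and 8.64 in tumor. Its nontumor arrays lay close together, while tumor array 4 stood far below the other tumor arrays. The difference was -2.34 ± 0.82 (adjusted p = 0.0323), and -1.42 without tumor array 4 (adjusted p = 0.00962). The call was lost without tumor array 2 (adjusted p = 0.0658) and without any 1 nontumor array (adjusted p from 0.0593 to 0.0632).

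The dimmer Apob probe set, 1371157_at, measured 9.57, 9.65, 9.0 and 8.43 in nontumor liver and 7.25, 6.87, 7.52 and 6.78 in tumor. Here the 4 tumor arrays lay close together, over a range of 0.74 against 4.51 for the brighter probe set. The difference, -2.06 ± 0.28 (adjusted p = 0.00029), was nearly that of the brighter one, but it had less spread. The 2 probe sets thus gave 4.17-fold and 5.08-fold lower Apob in tumor and disagreed on how far the tumor arrays differ from each other. Tumor array 4 was 5.22-fold below the nontumor mean on the dimmer probe set and 34.7-fold on the brighter one. The dimmer one read 6.78 there, not far above that array's background limit of 5.59, so its fall and spread may be understated.

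The major proteins of high density lipoprotein, Apoa1 and Apoa2, had mean differences of like size that were not called, and in both tumor array 3 lay within the nontumor range. Apoa1, the scaffold of the particle and activator of cholesterol esterification, measured 13.67, 13.72, 13.86 and 13.87 in nontumor liver and 12.60, 10.68, 13.75 and 8.46 in tumor. Tumor array 3 lay inside the nontumor range and the other 3 below it. The difference was -2.41 ± 0.96 with adjusted p = 0.0521. Without tumor array 3 it was -3.20 (adjusted p = 0.00914), without tumor array 1 -2.81 (adjusted p = 0.0474), and without tumor array 4 -1.44 (adjusted p = 0.0711).

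Apoa2, the second protein of the particle, measured 13.91, 13.96, 13.36 and 13.01 in nontumor liver and 11.68, 11.37, 13.44 and 6.63 in tumor. Tumor array 3 again overlapped the nontumor arrays, and tumor array 4 was 121-fold below their mean, the widest gap of any member on any array. The difference was -2.78 ± 1.22 (adjusted p = 0.0719). It was called without tumor array 3 (-3.67, adjusted p = 0.0207) and without tumor array 4 (-1.40, adjusted p = 0.038).

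Apoa1, Apoc3, Apoa4 and Apoa5 lie next to each other in that order on chromosome 8 of the rat (GRCr8), with no other gene listed between them, and the 4 neighbours are given together. Apoc3, an inhibitor of lipoprotein lipase, measured 14.20, 14.24, 13.99 and 13.89 in nontumor liver and 13.11, 12.15, 13.79 and 9.25 in tumor. Its groups did not overlap, yet the gap between tumor array 3 and the lowest nontumor array was small. The difference, -2.0 ± 0.83, did not pass (adjusted p = 0.0594). It passed without tumor array 3 (-2.58, adjusted p = 0.0205) and without tumor array 4 (-1.06, adjusted p = 0.0262).

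Apoa4, a lipid-binding protein of chylomicrons and high density lipoprotein that rodent liver makes as well as intestine, measured 12.42, 11.29, 11.47 and 10.71 in nontumor liver. In tumor it measured 8.74, 7.67, 10.16 and 6.43. All tumor arrays lay below all nontumor arrays, although the nontumor arrays themselves differed by more than those of any other member. The difference was -3.22 ± 0.72 (adjusted p = 0.0042), a 9.33-fold lower level.

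Apoa5, which promotes hydrolysis of triglyceride by lipoprotein lipase and is made almost only in liver, measured 12.86, 12.84, 11.77 and 12.19 in nontumor liver. Its tumor values were 9.54, 8.67, 10.15 and 6.76. Even the highest tumor array was 4.80-fold below the nontumor mean. The difference was -3.63 ± 0.65 (adjusted p = 0.00133), a 12.4-fold lower level. Of the 4 neighbours, the pair at 1 end of the cluster (Apoa1 and Apoc3) thus had differences near the median of the members that missed the threshold, and the pair at the other end (Apoa4 and Apoa5) had larger ones that passed. The pairs also differed in brightness, with nontumor means of 13.78 and 14.08 for Apoa1 and Apoc3 and 11.47 and 12.41 for Apoa4 and Apoa5. Near the top of the scale a fold can be understated. Whether neighbours differ from each other was not tested.

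Apom, the carrier of sphingosine 1-phosphate in high density lipoprotein, showed the largest mean fall of the members. It measured 12.67, 12.47, 11.54 and 11.69 in nontumor liver and 8.17, 7.46, 10.14 and 6.42 in tumor. Tumor arrays 1, 2 and 4 were 15.1-fold, 24.8-fold and 50.9-fold below the nontumor mean, and array 3 was 3.86-fold below it. The difference was -4.04 ± 0.69 (adjusted p = 0.00102), a 16.5-fold lower level.

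Apoh, also called beta-2-glycoprotein I, is a plasma protein that binds phospholipid. It measured 13.93, 13.88, 13.77 and 13.79 in nontumor liver and 12.68, 11.11, 13.16 and 8.30 in tumor. The pattern was close to that of the brighter Apob probe set, with tight nontumor values and a tumor array 4 far below the rest. The difference was -2.53 ± 0.90 (adjusted p = 0.0352). It was -1.53 without tumor array 4 (adjusted p = 0.0156), and the call was lost without tumor array 2 (adjusted p = 0.0751) and without any 1 nontumor array (adjusted p from 0.0633 to 0.0683).

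Apoe, the ligand by which receptors take up lipoprotein remnants, differs from the other members in being made in quantity by macrophages and other cells besides hepatocytes. Its bright probe set, 1370862_at, measured 14.42, 14.40, 14.35 and 14.31 in nontumor liver and 14.02, 13.64, 14.16 and 13.27 in tumor. The groups did not overlap, but the 4 tumor arrays spread over only 0.90. The difference was -0.60 ± 0.18 (adjusted p = 0.016), a 1.51-fold lower level. The nontumor values lie close to the top of the scale of these arrays, where a fold can be understated.

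The other Apoe probe set, 1371288_at, was within background on 11 of the 12 arrays, the exception being LEC at 4 weeks. It measured 5.27, 5.13, 5.52 and 5.58 in nontumor liver and 4.47, 4.47, 4.50 and 4.4 in tumor. The difference of -0.91 ± 0.11 passed the test (adjusted p = 0.000127), but both groups lie in the range of RNA that is not present, so it carries no level of Apoe and no fold is given. Of the 11 other probe sets, which were above background on all 12 arrays, 8 were lower in tumor.

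**Figure D2:**
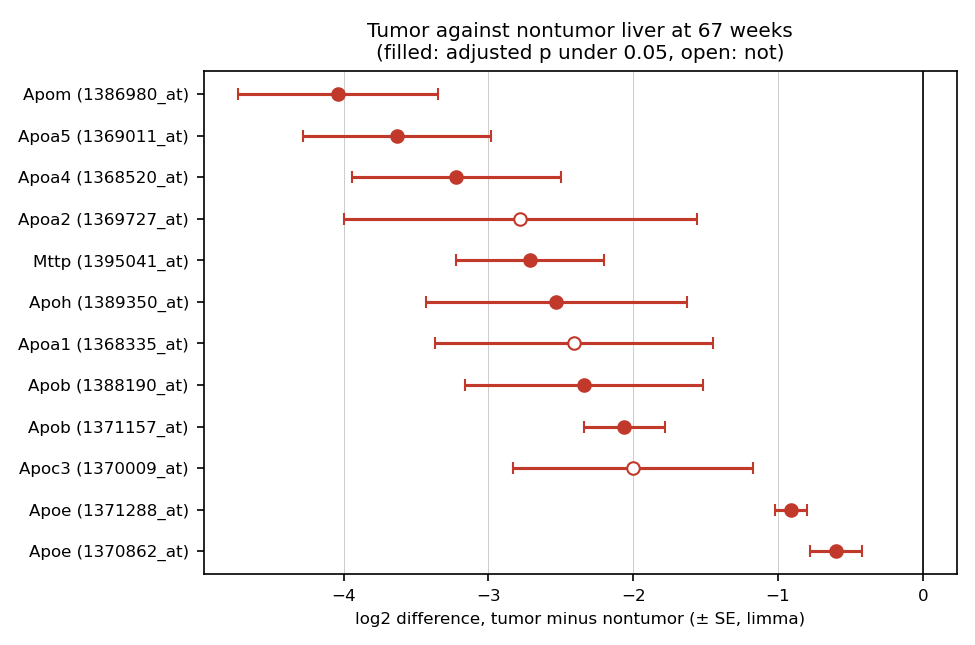
Difference between tumor and nontumor liver at 67 weeks (horizontal axis, log2 units; point and bar, difference ± SE from limma) for each probe set, in order of size; filled points passed an adjusted p of 0.05 and open points did not. The largest falls belong to Apom (-4.04), Apoa5 (-3.63) and Apoa4 (-3.22), and the 3 open points are Apoa1, Apoa2 and Apoc3, whose errors are among the widest.

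All member probe sets but 1 varied more between tumor arrays than most probe sets did. The range over the 4 tumor arrays had a median of 3.72 log2 units over the 12 probe sets, beside 0.26 over all probe sets; over the nontumor arrays, all probe sets had a median range of 0.35. Apoa2 ranged over 6.81 units in tumor, Apoa1 over 5.28, Apoh over 4.86 and Apoc3 over 4.54. Mttp ranged over 2.89 and the bright Apoe probe set over 0.90. The exception was the dim Apoe probe set, 1371288_at, at background in tumor, which ranged over 0.11.

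This variation had 1 order. All 12 member probe sets were highest on tumor array 3, then on 1, then on 2 and lowest on 4. The dim Apoe probe set had it only within background, over 0.11 log2 units. In all, 5.86% of probe sets had that order, and 13.1% of those called lower in tumor. The order was taken from the members' own values, so these shares describe it and do not test it. The median difference of the members from the nontumor mean was -0.77 on tumor array 3, -1.58 on array 1, -2.54 on array 2 and -5.08 on array 4. On array 4, Apoa4 at 6.43 and Apom at 6.42 came within a log2 unit of the highest absent control, 5.59, so their falls there may be understated. Apoc3 and Apoe on the same array, at 9.25 and 13.27, were well above it.

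Markers of hepatocytes moved the same way over these arrays. All 14 measured markers had the order 3, 1, 2, 4, and their median difference from the nontumor mean was -0.64, -1.66, -2.79 and -4.63 in that order of arrays. Of the 14, 11 were lower in tumor and 0 higher; the other 3 include Alb, the gene of serum albumin, at -0.62 ± 0.34 (adjusted p = 0.13; -0.84 without tumor array 3, adjusted p = 0.0494, and -0.24 without tumor array 4, adjusted p = 0.132). Their summed linear level lay between 145863 and 167904 on the nontumor arrays and between 20061 and 114133 on the tumor arrays. None was at background in nontumor liver, and Asgr1, Cyp3a2 and Tat were at background on tumor array 4. Alb measured 14.53 to 14.57 in nontumor liver, at the top of the scale, where a fold can be understated.

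Most markers of other cell types did not have that order. All 8 bile duct markers were higher in tumor, with differences from 2.31 for Prom1 to 4.61 for Krt7 and a median of 3.40. The median over the 8 lay between 3.41 and 3.55 above the nontumor mean on each of the 4 tumor arrays, and 0 of the 8 had the order 3, 1, 2, 4. Their summed level was 1987 to 5981 in nontumor liver and 31706 to 37972 in tumor. Markers of stellate cells and matrix were higher for 10 of 12 (summed level 6640 to 9382 against 31393 to 42067), and 0 of 12 had the order. Of 8 endothelial markers 3 were lower and 4 higher (6539 to 8658 against 6522 to 8536), and 0 had the order. The part of a change in cell types in the fall of the apolipoprotein genes was not tested.

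Apoe was set beside macrophage markers, since macrophages make it too. Of 13 such markers 6 were higher and 3 lower in tumor, with a summed level of 24889 to 38186 in nontumor liver and 39529 to 47543 in tumor. Clec4f and Cd5l, markers of the liver's resident Kupffer cells, were lower by -3.85 ± 0.29 and -4.82 ± 0.57, and Lyz2, a marker of macrophages and other myeloid cells, was higher by 2.05 ± 0.13 (adjusted p of 1.26e-05, 0.00013 and 5.83e-06). Of the 13, 3 had the order 3, 1, 2, 4 over the tumor arrays: Clec4f, Cd5l and C1qb, a complement subunit gene. Clec4f measured 8.79, 8.34, 7.89 and 7.37 in that order of arrays and Cd5l 8.28, 7.86, 7.12 and 5.27, while C1qb lay between 11.45 and 11.67. The last Cd5l value is at background, as the limit on tumor array 4 was 5.59, so its fall there may be understated. The part of these cells in the Apoe level was not tested. Intestinal epithelium, which makes Apob, Mttp, Apoa1 and Apoa4 in the body, was set beside the members as well. Of its 8 markers 6 were higher in tumor and 1 lower, and 1 of the 8 had the order 3, 1, 2, 4. The largest rise was that of Lgals4, by 5.40 ± 0.43, and the 1 lower marker was Fabp2, by -1.25 ± 0.23 (adjusted p of 1.63e-05 and 0.00158 by limma). Of those called higher, Si and Cdx1 had nontumor means of 4.45 and 5.92, at or near background.

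**Figure D3:**
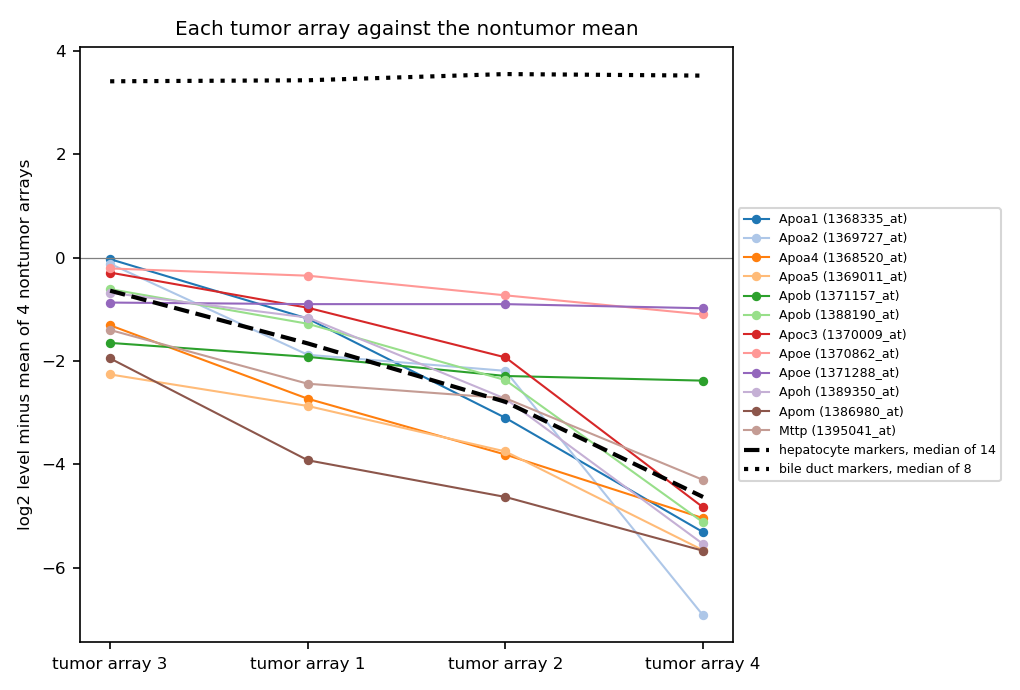
Difference of each tumor array from the mean of the 4 nontumor arrays (vertical axis, log2 units) for the 12 probe sets (coloured lines), with the median of 14 hepatocyte markers (dashed) and of 8 bile duct markers (dotted); the tumor arrays stand in the order of the members' levels, not in any order of the study. The members and the hepatocyte markers step down from array 3 to array 4 while the median of the bile duct markers stays between 3.41 and 3.55.

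Among the nontumor arrays the members split too, by less. For 9 of the 12 probe sets (75.0%) arrays 1 and 2 were both above arrays 3 and 4, as were 35.7% of all probe sets. The labels do not give this split, and these shares describe it and do not test it. Apom was the clearest, at 12.67 and 12.47 against 11.54 and 11.69. Apoa1 had the opposite order, with 13.67 and 13.72 against 13.86 and 13.87. The dim Apoe probe set, within background, had it too, at 5.27 and 5.13 against 5.52 and 5.58.

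Nontumor LEC liver at 67 weeks was next compared with LEA liver of the same age, which asks how the mutant strain's diseased liver stands against a control strain. No member probe set was called in either direction by limma, and 0 had an unadjusted p under 0.05; of all probe sets 0.354% were lower and 0.190% higher in LEC. The LEA array lay above all 4 nontumor arrays for 6 of the 12 probe sets, below them for 1 and among them for 5. Nontumor arrays all below or all above the LEA array were found for 29.0% and 19.3% of all probe sets. There is 1 LEA array, so the spread comes from the replicated groups, tumor included.

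Apoa1 was the 1 probe set lower on the LEA array, at 13.04 beside 13.67 to 13.87 in LEC nontumor liver. The difference was 0.73 ± 1.51; with the spread of the nontumor arrays alone it was 0.73 ± 0.15, which had the lowest adjusted p of the members there, 0.296. Mttp was 12.42 in LEA beside 11.59 to 12.17, a difference of -0.58 ± 0.81. Apoa4 was 12.50 beside 10.71 to 12.42, a difference of -1.03 ± 1.13, and Apom was 12.71 beside 11.54 to 12.67. These values, like all 12, did not pass, and the errors, up to 1.92, leave differences of several fold undetectable for most members. The bright Apoe probe set was the same to within 0.00 ± 0.28, at 14.37 in LEA.

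The 3 age pools were compared with the nontumor arrays in turn; these comparisons share the 4 nontumor arrays with each other and with the LEA and tumor comparisons. No member was called at any age, and 2, 1 and 1 probe sets had an unadjusted p under 0.05 at 4, 26 and 39 weeks, all lower at 67 weeks. Of all probe sets, 0.203%, 0.171% and 0.122% were lower at 67 weeks than at 4, 26 and 39 weeks, and 0.174%, 0.0419% and 0.0258% higher. The lowest adjusted p of a member was 0.0794, 0.284 and 0.339, each time for the dim Apoe probe set. Nontumor arrays all below the pool were found for 26.7%, 24.6% and 28.1% of all probe sets at 4, 26 and 39 weeks, and all above it for 21.5%, 22.5% and 16.8%. Of the 12 member probe sets these were 2, 1 and 1 below and 4, 4 and 1 above.

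At 4 weeks the 2 Apob probe sets went apart. The dimmer, 1371157_at, measured 10.63, above all other arrays, and the nontumor mean at 67 weeks was lower by 1.47 ± 0.44 log2 units (2.78-fold; unadjusted p = 0.00897, adjusted p = 0.204). The brighter, 1388190_at, measured 13.54, below all 4 nontumor arrays, so the 2 probe sets disagree in direction and neither difference passed.

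At 4 weeks 6 of the 12 probe sets lay within the nontumor range, at 26 weeks 7 and at 39 weeks 10. The furthest from the nontumor mean at 4 weeks was the dimmer Apob probe set, off by 1.47, followed by Apoa4, 0.94 above it. At 26 and 39 weeks the furthest was the dim Apoe probe set, at background, off by 0.57 and 0.55. Apoa1 measured 13.57, 13.64 and 13.62 at 4, 26 and 39 weeks, between the LEA array and the 67 week nontumor arrays. Apoa4 measured 12.41, 11.12 and 11.16, and Apom 12.53, 11.85 and 11.94, so both were highest at 4 weeks, at levels near those of LEA and of nontumor array 1. Apoc3 (14.11, 14.06 and 13.99), Apoa2 (13.59, 13.23 and 13.51), Apoa5 (12.56, 12.40 and 12.27) and Mttp (11.90, 11.60 and 11.62) stayed inside the nontumor range at each age. With 1 pool at each age, no trend with age was tested.

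Other genes of lipoprotein metabolism were taken as 5 lists, of which 69 of 80 genes were measured. Of the 69, 43 were lower in tumor, 11 higher and 15 did not pass; over all genes by their brightest probe set, 29.2% were lower and 38.8% higher. The median difference was -0.63, beside 0.07 over all genes. The list medians were nearer 0 than that of the members in each list, as the next paragraphs give.

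Among 11 other apolipoproteins and their companions 8 were lower and 1 higher, with a median of -1.32. The falls of the small exchangeable apolipoproteins were as large as those of the members: Apoc2, the cofactor of lipoprotein lipase, by -3.95 ± 1.0 (adjusted p = 0.00787), and Apoc4 by -3.45 ± 0.64 (adjusted p = 0.00162). Apoc1, an inhibitor of lipid transfer and lipase, was lower by -2.78 ± 1.01 (adjusted p = 0.0367), and by -1.66 without tumor array 4 (adjusted p = 0.0158); its call was lost without tumor array 2 (adjusted p = 0.0758) and without any 1 nontumor array (adjusted p from 0.0618 to 0.0718). Apon was lower by -4.09 ± 0.79 (adjusted p = 0.00208), the largest fall of the 5 lists. Clu, the extracellular chaperone clusterin or apolipoprotein J, which many cell types make, was higher by 0.62 ± 0.10 (adjusted p = 0.000623).

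Of 18 partners of assembly and secretion 13 were lower and 2 higher, with a median of -0.85. The lipases that mobilise stored triglyceride for secretion were lowest, Ces1d by -3.82 ± 0.84 and Aadac by -3.59 ± 0.59, followed by Cideb, a protein of lipid droplets that aids lipidation of the particle, by -3.04 ± 0.40 (adjusted p of 0.00387, 0.000844 and 0.000258). P4hb, the protein disulfide isomerase that is the partner subunit of Mttp, was lower by only -0.18 ± 0.07 (adjusted p = 0.0494), while Mttp itself was lower by -2.71. Sort1, a sorting receptor that binds apolipoprotein B, was higher by 1.90 ± 0.17 (adjusted p = 2.71e-05), and the coat-forming GTPase gene Sar1a by 0.23 ± 0.08 (adjusted p = 0.0255). The P4hb call was lost without any 1 array but tumor array 3 (adjusted p from 0.0709 to 0.127), and that of Sar1a without nontumor array 3 (0.19) or tumor array 1 (0.20) or 2 (0.23; adjusted p of 0.0646, 0.0751 and 0.0544) and with array medians subtracted (0.13, adjusted p = 0.162). The members of this list therefore did not move as 1 block.

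Of 8 genes of high density lipoprotein remodelling 5 were lower and 1 higher, with a median of -0.56. Lcat, the plasma enzyme that esterifies cholesterol with Apoa1 as its activator, was lower by -3.66 ± 0.82 and Lipc, hepatic lipase, by -2.73 ± 0.27 (adjusted p of 0.00429 and 4.81e-05). Abca1, which exports lipid to Apoa1, was lower by -0.82 ± 0.19 and Scarb1, the receptor that takes up cholesterol from the particle, by -0.62 ± 0.12 (adjusted p of 0.00588 and 0.00233). Abcg1, a cholesterol exporter with high levels in macrophages, was higher by 1.23 ± 0.09 (adjusted p = 1.35e-05).

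Of 12 receptors and genes of lipolysis 5 were lower, 3 higher and 4 did not pass, with a median of -0.12. Angptl8 and Angptl4, secreted inhibitors of lipoprotein lipase, were lower by -3.06 ± 0.69 and -1.94 ± 0.37, and the remnant receptor Lrp1 by -0.67 ± 0.18 (adjusted p of 0.00462, 0.00195 and 0.0113). Lpl, lipoprotein lipase itself, which adult hepatocytes make little of, was higher by 2.93 ± 0.35 (adjusted p = 0.000138), a 7.64-fold higher level. The receptors Vldlr and Lsr were higher by 0.92 ± 0.13 and 0.70 ± 0.12 (adjusted p of 0.000352 and 0.00105). Higher Lpl thus stood beside lower levels of its cofactor Apoc2 and of Apoa5.

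Of 20 transcription regulators 12 were lower and 4 higher, with a median of -0.79. Creb3l3, a factor of the endoplasmic reticulum known to act on Apoa4 and Apoa5, was lower by -2.61 ± 0.22, the forkhead factor gene Foxa3 by -2.45 ± 0.26 and Nr1h3, the liver X receptor alpha, by -2.24 ± 0.24 (adjusted p of 2.14e-05, 7.77e-05 and 7.82e-05). Hnf4a, a nuclear receptor that acts on many apolipoprotein genes, was lower by -1.14 ± 0.18 (adjusted p = 0.000713). The orphan receptor genes Nr2f2 and Nr2f1 were higher by 1.45 ± 0.16 and 0.52 ± 0.15, and Nr5a2 by 0.86 ± 0.33 (adjusted p of 0.000108, 0.0135 and 0.0426). Nr2f1 averaged 5.90 in nontumor liver, about at the background limit, and 6.42 in tumor, so its rise is uncertain. The Nr5a2 call was lost without nontumor array 3 or 4 or tumor array 1, 2 or 4 (differences of 0.62 to 0.80, adjusted p from 0.0965 to 0.106) and with array medians subtracted (0.76, adjusted p = 0.0604). Of these 20 regulators 6 had the order 3, 1, 2, 4 over the tumor arrays, as did 5 of the 11 other apolipoproteins, 11 of the 18 assembly partners, 3 of the 8 remodelling genes and 4 of the 12 receptors.

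**Figure D4:**
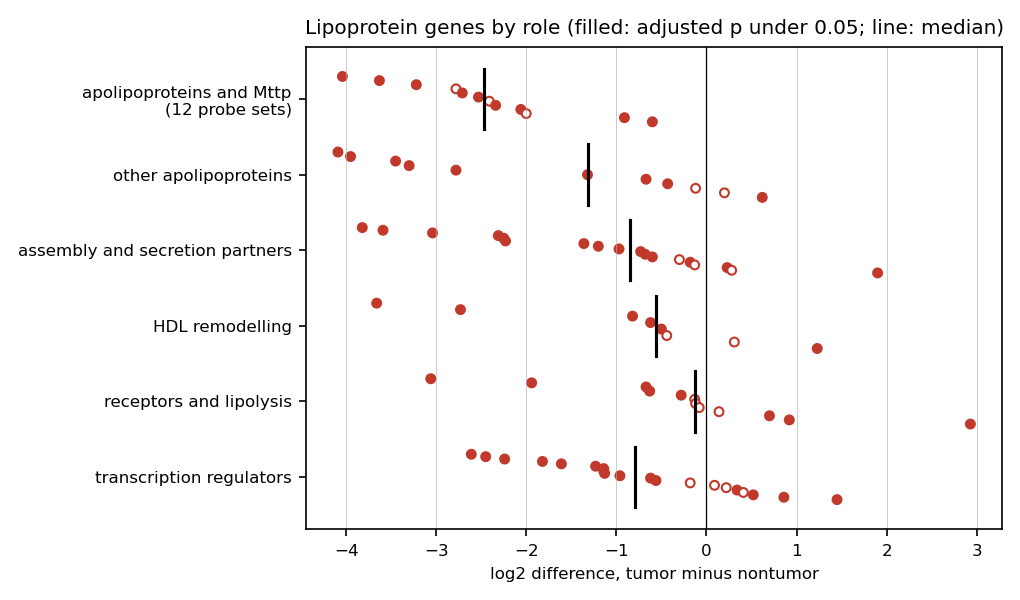
Difference between tumor and nontumor liver at 67 weeks (horizontal axis, log2 units) of the 12 member probe sets and of the measured genes of 5 lists (rows); filled points passed an adjusted p of 0.05, open points did not, and the vertical line is the median of the row. The members' median is -2.47 and those of the lists run from -1.32 to -0.12, with points on both sides of 0 in each list.

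Against LEA, 0 of the 69 genes were called in nontumor LEC liver by limma and 9 had an unadjusted p under 0.05; 0.331% of all genes were lower and 0.232% higher. The lowest adjusted p was 0.166, for A1cf, the cofactor of the editing of Apob messenger RNA, at -1.59 ± 0.41. A1cf was also lower in tumor than in nontumor liver, by -2.23 ± 0.26 (adjusted p = 0.000126); both comparisons use the 4 nontumor arrays.

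The genes nearest to each member in profile were found over the 12 arrays, by the root mean square distance between profiles centred on their own means, among 9678 genes with a mean above the median, the 10 members left out. The tumor arrays carry most of each profile, so the distances describe mainly the steps between them. Apoc3 lay nearest to Itih3 (0.09 log2 units) and Gc (0.14), against a root mean square deviation of 1.38 of its own. Apoh lay nearest to Ambp (0.12) and Fga (0.14), and the bright Apob probe set to Pck1 and Fgg (0.14 each).

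The nearest genes of Mttp were Itih1 (0.16) and Ugt2b10 (0.19), and those of the bright Apoe probe set were Serpina1 (0.07) and Mgst1 (0.10). For Apoa5 they were Hgd (0.21) and Ftcd (0.22), and for Apom Slco1a1 (0.29) and Ugt2b1 (0.30). Apoa1 lay nearest to C9 (0.29) and Fgg (0.34), with the member Apoh at 0.33, and the dimmer Apob probe set to Prodh (0.28) and Gckr (0.29). For 2 members the nearest of these genes was another apolipoprotein: Apoc1 for Apoa2 (0.42) and Apoc4 for Apoa4 (0.37), followed by Cyp2d2 (0.43) and Ppp1r3b (0.38).

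Between members, the closest profiles were those of Apoh and the bright Apob probe set (0.16), of Apob and Apoc3 (0.18) and of Apoc3 and Apoh (0.29). Apoa5 was nearer to Apom (0.46) than to its neighbour on the chromosome, Apoa4 (0.56). The 2 Apob probe sets lay 0.99 apart, further than many pairs of different members.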

How the data were processed

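Total RNA of rat liver was extracted with a column kit, biotin-labelled from 3 µg per array and hybridized to Affymetrix rat expression arrays, per the labels' protocols. Values are the log2 expression values the authors deposited, made with RMA, which subtracts background, equalizes arrays by quantiles and summarizes probes; the submitters' processing notes name RMA and R 2.6.1. The sources used here do not say if the 12 arrays went through RMA as 1 set. They were not normalized again here for the results given, and nothing was filtered; array number limits the precision.

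Groups came from sample titles. Of 31099 probe sets, 57 controls were left out and 31042 tested; the annotation gave 20826 probe sets a single gene and 436 several, which were not named, and 20764 were matched by Entrez identifier to RefSeq symbols. A gene outside the 10 members was represented by its brightest probe set; for the members, all were kept. The limma package (3.58.1, lmFit then eBayes, R 4.3.3) fitted the 6 group means over 12 arrays in 1 model, with 6 residual and 2.84 prior degrees of freedom. Groups of 1 array took their spread from the replicated groups. Tests were two-sided, with Benjamini-Hochberg adjustment over the 31042 probe sets and a threshold of 0.05. Differences are ± SE and group means ± SD. The fit was also run on simulated data with the nontumor spread on every array. That run does not cover the wider spread of most members in tumor.

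The members, gene lists and tests were chosen with earlier results of these data known. Named genes are all members, up to 3 called genes per direction and list for tumor, a few named always, and the 2 nearest profiles of each member; not every such gene is printed. Xist, Eif2s3y, Uty, Prom1, Krt7 and the macrophage examples were chosen after their values were seen, as was the alternative without the 26 and 39 week arrays. The order 3, 1, 2, 4 of the tumor arrays was likewise taken from the members' values. The split of nontumor arrays 1 and 2 from 3 and 4 was not given by the labels. Deviations of same-numbered tumor and nontumor arrays 1 to 4 were only weakly correlated (0.054, 0.142, -0.082 and 0.142). Correlations between arrays of different number ran from -0.144 to 0.108. Tumor arrays 1, 2 and 4 each correlated best with the nontumor array of their own number, and tumor array 3 did not. These values do not settle whether the numbers mark pairs, so the main test took the groups as unpaired. Promoter windows and gene order came from RefSeq tables (GRCr8). Python 3.11.15 with matplotlib 3.10.9 drew the figures.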

Additional observations from a re-analysis of the deposited data

How the results depend on the processing

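The count of member probe sets lower in tumor, 9 of 12, ranged from 7 to 12 when each replicate was left out and was 0 higher in every such fit; that of the 69 other genes ranged from 38 to 43 lower and from 8 to 13 higher. It was 9 after quantile normalization again, with a trended robust prior, with only the groups compared and without the 26 and 39 week arrays, 8 of 11 without dim probe sets, 10 with array weights and 11 with array medians subtracted. With means over probe sets it was 7 of 10 genes. Against a 2-fold threshold 3 member probe sets were lower, and of the other genes 11 were lower and 2 higher. With the replicate block, which takes same-numbered arrays as pairs, 12 member probe sets were lower, Apoa1, Apoa2 and Apoc3 included, and 0 higher. In that fit 41 other genes were lower and 9 higher. Whether the numbers mark pairs is not known. Apoa1 passed with array medians subtracted (-2.51, adjusted p = 0.0402) and with array weights (-2.38, adjusted p = 0.0469), and Apoc3 with array medians subtracted (-2.11, adjusted p = 0.0446); the cause was not tested. Of 35 other named genes and markers, Apoc1, P4hb, Sar1a and Nr5a2 lost their call and Alb gained one in at least 1 of the 8 fits that left out an array; Sar1a (0.14, adjusted p = 0.239) and Nr5a2 (0.65, adjusted p = 0.0891) also lost it after quantile normalization again, and P4hb (-0.18, adjusted p = 0.0612) without dim probe sets.

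Against 4 weeks, 1 member probe set, Apoe 1371288_at at background, was lower after quantile normalization again (-0.87, adjusted p = 0.0422) and with array weights (-0.94, adjusted p = 0.0196), and the count ranged from 0 to 1 when a replicate was left out. Against LEA no count changed. There, 3 differences near 0 changed sign: Apoh was 0.02 after quantile normalization again, Apoe 1370862_at was 0.01 with array medians subtracted and 0.02 with array weights and ranged from -0.02 to 0.02 when a replicate was left out, and Apoa5 then ranged from -0.11 to 0.25. The 4 mixtures a group and single pools limit every value, levels near 14 may be compressed, and levels under about 6 cannot be told from absent RNA.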
